A study of Mus musculus with 384 samples.

Results

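The expression of 9 genes of the intrinsic apoptosis pathway was followed in single intrinsically photosensitive retinal ganglion cells (ipRGCs), the ganglion cells that make the photopigment melanopsin, at postnatal days 1 and 5 (P1 and P5). They were the effectors *Bax* and *Bak1*, the anti-apoptotic genes *Bcl2*, *Bcl2l1* and *Mcl1*, the BH3-only genes *Bcl2l11* and *Bbc3*, and the apoptosome genes *Apaf1* and *Casp9*. The members were chosen by symbol for their known roles, and each symbol matched 1 of the 55331 gene IDs in the deposited tables. The cells came from *Opn4Cre/+; Brn3bzDta/+; Rosa26fsTRAP/+* mice, and every cell of both ages carried all 3 alleles. Cre from the melanopsin gene *Opn4* switched on a GFP-tagged ribosomal protein, and single cells were sorted for GFP and for CD90.2, the product of *Thy1*. The *Brn3bzDta* allele is a further limit of the model, because *Brn3b* is the gene named *Pou4f2* in the tables and the allele is built to make diphtheria toxin A chain from that locus after Cre has acted. No cells without that allele were sequenced here, so the levels below describe cells of this genotype only.

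Intrinsic apoptosis is decided at the mitochondrial outer membrane. Bax and Bak form pores in it, the anti-apoptotic proteins hold them back, and BH3-only proteins such as Bim (*Bcl2l11*) and Puma (*Bbc3*) bind the anti-apoptotic proteins or activate the effectors. Cytochrome c that leaves through the pores assembles Apaf-1 into the apoptosome, which activates caspase-9. A large share of mouse retinal ganglion cells die naturally around birth and in the first postnatal days, and this death depends on Bax. The libraries measure transcripts and not pore formation, caspase activity or death.

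The proteins of the BCL-2 family meet through the BH3 motif, a short helix that carries a leucine, 3 further residues, a glycine or alanine, and an aspartate. The coding stretches of that motif are shown for the 7 family members because they mark what effectors, inhibitors and BH3-only genes share. They were read from the longest complete coding sequence of each gene in GENCODE M21 (GRCm38), 5′ to 3′ on the coding strand, with the codons of the leucine to the aspartate in capitals.
Bax: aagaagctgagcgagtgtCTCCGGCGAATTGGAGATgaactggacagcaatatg
Bak1: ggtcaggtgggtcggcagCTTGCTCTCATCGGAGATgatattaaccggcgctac
Bcl2: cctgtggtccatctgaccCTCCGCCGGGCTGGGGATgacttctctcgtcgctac
Bcl2l1: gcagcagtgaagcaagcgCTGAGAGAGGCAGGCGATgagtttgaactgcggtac
Mcl1: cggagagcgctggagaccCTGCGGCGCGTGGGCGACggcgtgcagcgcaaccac
Bcl2l11: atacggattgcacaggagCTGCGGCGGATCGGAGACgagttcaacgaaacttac
Bbc3: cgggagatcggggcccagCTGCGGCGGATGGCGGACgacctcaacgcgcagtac
Each of these 7 coding sequences held exactly 1 match to the motif. The motif occurs in 23.9% of the 21576 complete coding sequences of that annotation, so a match alone does not mark a family member. *Apaf1* also held 1 match and *Casp9* held none. Of the 18 capital bases, *Bcl2l11* and *Bbc3* shared 15, the most of any of the 21 pairs, and *Bak1* and *Bcl2l1* shared 7, the fewest. Over the whole 54 bases the pairs shared 17 to 32. No member had a stretch of at least 100 bases at 95% identity in a gene elsewhere, apart from *Apaf1*, which had such a match in 5 genes.

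In GRCm38, the effector genes lie on chromosome 7 (*Bax*, 45461697 to 45466898, minus strand) and chromosome 17 (*Bak1*, 27019810 to 27029009, minus strand). *Bcl2* lies on chromosome 1 (106538178 to 106714274, minus strand), *Bcl2l1* on chromosome 2 (152780668 to 152831728, minus strand) and *Mcl1* on chromosome 3 (95658788 to 95663176, plus strand). *Bcl2l11* lies on chromosome 2 (128126038 to 128162547, plus strand) and *Bbc3* on chromosome 7 (16308393 to 16318205, plus strand). *Apaf1* lies on chromosome 10 (90989311 to 91082770, minus strand) and *Casp9* on chromosome 4 (141793612 to 141815976, plus strand). Exons of *Bak1* overlap those of *Ggnbp1* on the opposite strand, which held 150 fragments over all kept cells beside 529 of *Bak1*. The libraries do not mark strand, so the split between these overlapping genes is uncertain.

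The tables held 384 cells, the same number of each age. Those with at least 1000 detected genes were kept, which left 372 cells, of which 190 came from P1. A gene counted as detected from 1 fragment, and levels are FPKM as the authors deposited them. FPKM are fragments per kilobase of transcript, scaled by a factor that the authors' tool gave each library. The medians of that factor were 1.01 at P1 and 1.32 at P5, although median fragments were 930228 and 858452. The labels do not name the animals, so each age is 1 sample and no p-value was computed. Shares carry exact (Clopper-Pearson) 95% intervals, which cover counting error only. A level is called higher or lower at a 1.5-fold ratio of mean FPKM, and a share at a difference of 10 percentage points. Counts of called members in these comparisons are read against the percentage of all 13960 genes, those detected in at least 20 kept cells, that met the same rule.

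Some differences between the ages touch every comparison below. The median number of detected genes was 5081 at P1 and 6600 at P5, although median fragments on genes were 930228 and 858452, and no cell of either age held fewer than 264527. *Xist* without Y-linked transcripts was found in 150 P1 cells and 0 P5 cells, and Y-linked transcripts without *Xist* in 26 P1 cells and 160 P5 cells. By these transcripts most P1 cells were female and most P5 cells male. Age therefore cannot be told apart from animal, and only partly from sex. The hemoglobin transcripts *Hbb-bs*, *Hba-a1* and *Hba-a2* were found in 47.9%, 47.4% and 40% of P1 cells and in 1.65%, 2.198% and 0% of P5 cells. All 7 listed ganglion cell markers were found at both ages, in 15.8% to 96.8% of P1 cells and 37.9% to 98.9% of P5 cells. *Rbpms* was in 92.1% of P1 and 96.7% of P5 cells. *Thy1*, whose product was used for sorting, was in 46.3% and 57.1%, and *Pou4f1* in 15.8% and 37.9%. *Sncg* was the only one of them to fall, from 93.2% to 84.1%. *Opn4* was detected in 70% and 67.6% of cells and *Eomes* in 90.5% and 85.2%, so a minority of the sorted cells of either age showed no melanopsin transcript. The other listed ipRGC markers moved in opposite directions, with *Tbx20* in 76.8% and 63.2% of cells and *Adcyap1* in 45.8% and 75.8%. Of 31 markers of other retinal, glial and vascular cells, 14 were at 0 at P1 and 9 at P5, and the median share was 0.526% and 0.549%. *Glul*, found in 33.7% of P1 and 59.3% of P5 cells, and *Sfrp2*, in 33.7% and 44% of cells, stood out from these and lay above *Bak1*, *Bcl2*, *Bcl2l11*, *Bbc3*, *Apaf1* and *Casp9* at both ages. Their part in the results was not tested.

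Among the 9 genes, *Bax* stood far above the rest. Its mean level was 185.02 ± 229 FPKM at P1 (SD over 190 cells) and 142.9 ± 142.3 FPKM at P5 (SD over the P5 cells). Single cells ranged from 0 to 1467 FPKM at P1, with a median of 120, and from 0 to 1348 FPKM at P5, with a median of 116.3. The share of cells with *Bax* was 71.1% (64 to 77.4%) at P1 and 91.8% (86.8 to 95.3%) at P5. Of the 302 cells that held the transcript only 8 had 1 to 4 fragments, so most positive cells lay well above the limit of 1 fragment.

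The other effector gene was rare. *Bak1* was detected in 17 P1 cells (8.95%, 5.3 to 13.9%) and 33 P5 cells (18.1%, 12.8 to 24.5%), and its mean level was 0.732 ± 3.36 FPKM at P1 and 0.841 ± 2.85 FPKM at P5. The median was 0 at both ages and the highest cell reached 26 FPKM at P1 and 30.2 FPKM at P5. Where *Bak1* was found it rested on few fragments, with a median of 5 at P1 and 6 at P5, and 21 of the 50 positive cells held 1 to 4. At these fragment numbers many zeros cannot be told from missed molecules. *Bak1* without *Bax* was seen in 3 P1 cells and 1 P5 cell.

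The anti-apoptotic side was carried by *Bcl2l1*, which encodes Bcl-xL, and *Mcl1*, which encodes a short-lived inhibitor. *Bcl2l1* averaged 48.7 ± 125.1 FPKM at P1 and 29.5 ± 39.1 FPKM at P5. Its median was 2.78 FPKM at P1 and 17.6 FPKM at P5, and its highest cells reached 1476 and 254 FPKM. The highest P1 cell alone supplied 15.95% of the P1 sum. *Mcl1* averaged 20.5 ± 38.2 FPKM at P1 and 19.2 ± 28.1 FPKM at P5, with medians of 0 and 8.65 FPKM and highest cells of 212 and 182.7 FPKM. *Bcl2*, the founding member of the family, was found in only 19 P1 cells (10%, 6.13 to 15.2%) and 20 P5 cells (11%, 6.84 to 16.5%), at mean levels of 1.54 ± 6.64 and 1.45 ± 5.62 FPKM. Its positive cells were not near the limit of 1 fragment, with a median of 64 fragments at P1 and 61.5 at P5, and the highest reached 56.1 and 40.7 FPKM. *Bcl2* transcripts were therefore found mostly at sizeable fragment numbers in about 1 cell in 10 of each age, and not detected in the others. The libraries carry no molecular identifiers, so fragments do not count molecules. The zeros of *Bcl2* cannot be told from missed molecules either.

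Both BH3-only genes were minority transcripts. *Bbc3* was detected in 46 P1 cells (24.2%, 18.3 to 30.9%) and 59 P5 cells (32.4%, 25.7 to 39.7%), with mean levels of 11.04 ± 40.7 and 7.43 ± 17 FPKM and highest cells of 417 and 124.9 FPKM. *Bcl2l11* was detected in 14 P1 cells (7.37%, 4.09 to 12.1%) and 26 P5 cells (14.3%, 9.55 to 20.2%), with mean levels of 2.37 ± 10.2 and 2.77 ± 9.03 FPKM and highest cells of 76.2 and 57.5 FPKM. Both medians were 0 at both ages. In positive cells the median level of *Bbc3* was 26.9 FPKM at P1 and 15.5 FPKM at P5, close to the 29.7 and 13.6 FPKM of *Bcl2l11*, so *Bbc3* was found in more cells and at a like level per length. At least 1 of the BH3-only genes was detected in 58 P1 cells (30.5%) and 79 P5 cells (43.4%), and both together in 2 and 6 cells.

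The apoptosome genes were found in a minority of cells as well. *Casp9* was detected in 59 P1 cells (31.1%, 24.6 to 38.2%) and 75 P5 cells (41.2%, 34 to 48.7%), with mean levels of 14.01 ± 35.4 and 8.58 ± 17.5 FPKM and highest cells of 215 and 160.7 FPKM. *Apaf1*, which encodes the scaffold that caspase-9 binds, was detected in 39 P1 cells (20.5%, 15 to 27%) and 45 P5 cells (24.7%, 18.6 to 31.7%). Its mean level was 18.8 ± 67.5 FPKM at P1 and 6.49 ± 16.4 FPKM at P5, and its highest cell reached 703 FPKM at P1 and 107.1 FPKM at P5. All 4 of these medians were 0. Both apoptosome genes were found in the same cell in 14 P1 cells (7.37%) and 20 P5 cells (11%).

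**Figure D1:**
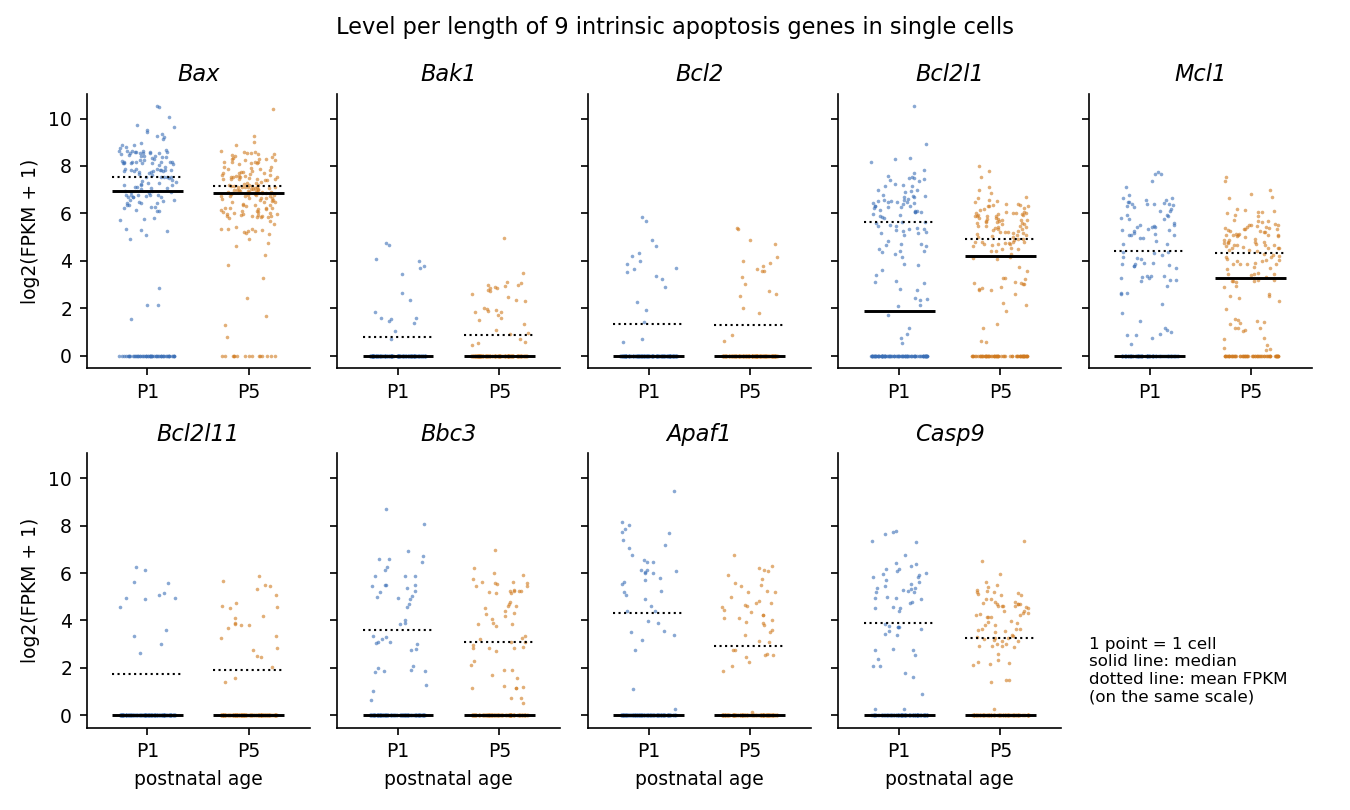
Level of each of the 9 genes in single cells, as log2(FPKM + 1), for all kept P1 cells (blue) and P5 cells (orange); each point is 1 cell, the solid line the median and the dotted line the mean FPKM placed on the same scale. *Bax* is the only gene with a median well above 0 at both ages, and the means of the rare genes come from a minority of high cells.

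By mean FPKM, the order at P1 was *Bax*, *Bcl2l1*, *Mcl1*, *Apaf1*, *Casp9*, *Bbc3*, *Bcl2l11*, *Bcl2* and *Bak1*. At P5 it was *Bax*, *Bcl2l1*, *Mcl1*, *Casp9*, *Bbc3*, *Apaf1*, *Bcl2l11*, *Bcl2* and *Bak1*. To give the spread within an age, the cells were divided by their numbers in the labels into 4 runs of up to 48 cells, which the labels do not call batches. The run means of *Bax* spanned 156.8 to 201 FPKM at P1, above those of *Bcl2l1* at 30.6 to 62.8 FPKM, which in turn lay above those of *Mcl1* at 15.8 to 25.2 FPKM. From *Mcl1* downward at P1, each gene overlapped with the next in the order. At P5 *Bax*, *Bcl2l1* and *Mcl1* were again separated from the next gene, and *Apaf1* from *Bcl2l11*, whereas *Casp9*, *Bbc3* and *Apaf1* overlapped, as did *Bcl2l11*, *Bcl2* and *Bak1*.

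The study chose the ages as before and during the growth of ipRGC axons into the suprachiasmatic nucleus, and both fall near the period of natural ganglion cell death. All 9 genes were detected in a larger share of cells at P5. The difference was largest for *Bax*, at 20.7 percentage points, and for *Mcl1*, which rose from 46.8% (39.6 to 54.2%) to 67% (59.7 to 73.8%), a difference of 20.2 points. *Bcl2l1* rose from 52.6% (45.3 to 59.9%) to 64.3% (56.9 to 71.2%), by 11.7 points, and *Casp9* by 10.2 points. The other 5 differences ran from 0.989 points for *Bcl2* to 9.18 points for *Bak1*. Thus 4 of the 9 genes were called more often detected at P5, beside 44% of all genes, and 0 were called less often detected, beside 0.351%. The median difference over the 9 genes was 9.18 points and over all genes 8.69 points, so the shift of the members lay close to that of all genes.

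**Figure D2:**
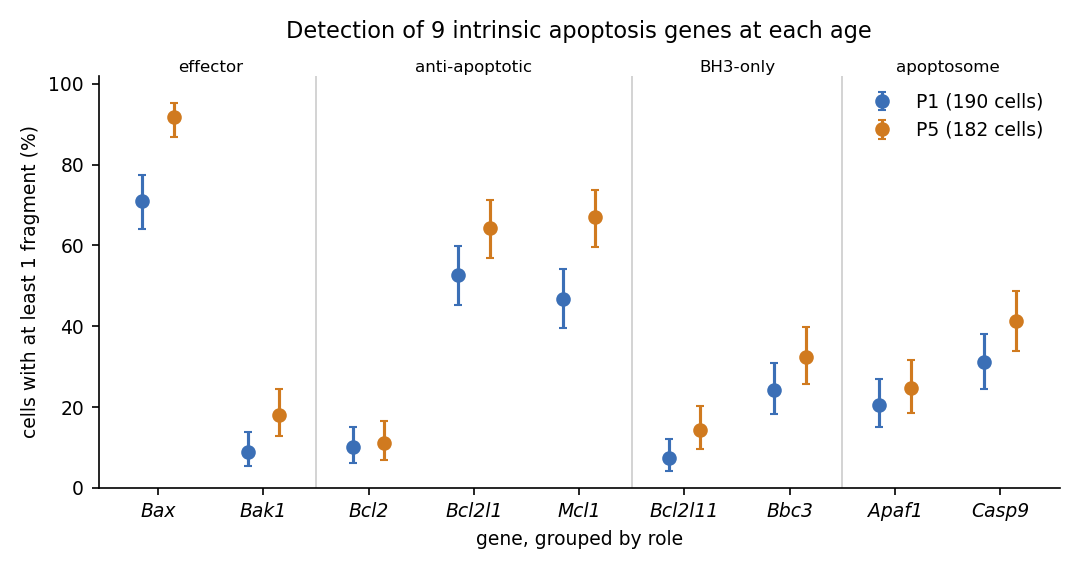
Share of cells with at least 1 fragment of each gene at P1 (blue) and P5 (orange), grouped by role; bars are exact 95% binomial intervals. Every gene is higher at P5, and the intervals of the 2 ages are apart for *Bax* and *Mcl1*.

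The number of detected genes moved with this difference. Among cells with 5000 to 7000 detected genes, 96 of them from P1, the differences ran from 2.55 points for *Bcl2l1* to 7.79 points for *Bax*, and 0 of the 9 genes passed 10 points, beside 17% of all genes, while the median difference over all genes was 3.24 points. The median numbers of detected genes in these cells were still 5619 at P1 and 6319 at P5. A cell held 2.73 ± 1.45 of the 9 transcripts at P1 and 3.65 ± 1.39 at P5 (SD over cells). Among cells with 4000 to 6000 detected genes the mean was 2.72 at P1 and 2.84 at P5, and among cells with 6000 to 8000 it was 4.11 and 3.97. After every cell had been thinned to 200000 fragments, *Bax* was found in 68.9% of P1 cells and 90.1% of P5 cells, and the median number of detected genes was 4567 and 5996. Both differences were still seen at that depth. P5 had the lower median of fragments before thinning, and fragments do not count molecules. The part of captured molecules was not tested.

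*Bax* was detected in 40 of 47, 34 of 47, 35 of 48 and 26 of 48 cells of the P1 runs, and in 42 of 45, 43 of 44, 41 of 45 and 41 of 48 cells of the P5 runs. The P5 shares, 85.4% to 97.7%, did not overlap with the P1 shares, 54.2% to 85.1%, although the nearest runs of the 2 ages were nearly level. *Bcl2l11* also did not overlap, at 2.08% to 10.6% against 11.1% to 20%. The other 7 genes overlapped, for example *Mcl1* at 35.4% to 63.8% against 60% to 73.3%, and *Bcl2l1* at 37.5% to 70.2% against 50% to 70.5%. Each P5 run lay above each P1 run for 2 of the 9 genes, beside 19.2% of all genes, and below for 0, beside 0.337%. The medians of detected genes were also apart, at 4380 to 5889 in the P1 runs and 5985 to 7304 in the P5 runs.

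**Figure D3:**
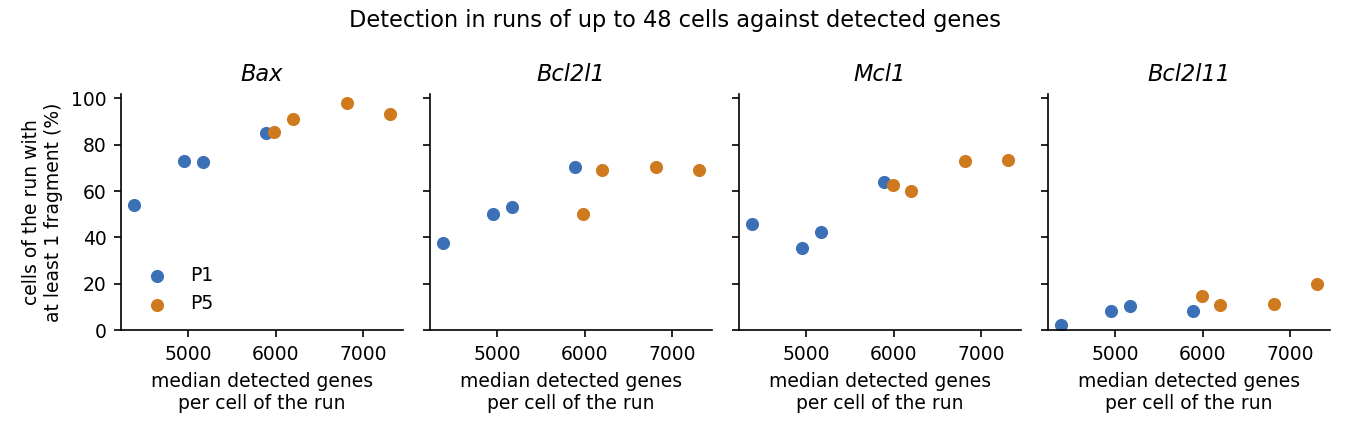
Share of the cells of a run with at least 1 fragment of *Bax*, *Bcl2l1*, *Mcl1* or *Bcl2l11*, against the median number of detected genes per cell of that run; each point is 1 of 4 runs of up to 48 cells at P1 (blue) or P5 (orange). The P1 run with the fewest detected genes has the lowest share of *Bax*, and the P1 run with 5889 detected genes lies beside the P5 runs.

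The animals could not be separated from age, but both kinds of P1 cell were compared with P5. *Bax* was detected in 15 of 26 P1 cells with Y-linked and no *Xist* transcripts (57.7%) and in 74.7% of the 150 P1 cells with *Xist* only, against 93.8% of the 160 Y-linked-only P5 cells. With Y-linked-only cells of both ages, whose medians were 4512.5 and 6647 detected genes, 7 of the 9 genes were more often detected at P5 by 10 points, beside 61.9% of all genes. With *Xist*-only P1 cells against all P5 cells 2 were, beside 36.5%. The difference in *Bax* was 36.1 points between Y-linked-only cells of the 2 ages and 17.1 points between *Xist*-only P1 cells and all P5 cells. Within P1, *Bax* was found in 65.6% of the cells with hemoglobin transcripts and in 53 of the 65 cells without (81.5%), and their medians were 4882 and 5515 detected genes. The part of free or attached red blood cell RNA in the difference between ages was not tested.

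Mean levels moved the other way from detection. Mean FPKM was lower at P5 for 7 of the 9 genes, and 3 were called lower, beside 45.6% of all genes, while 0 were called higher, beside 4.68%. *Apaf1* had the largest difference, a ratio of 0.344 (log2 ratio -1.54), followed by *Bcl2l1* at 0.606 and *Casp9* at 0.613. The median log2 ratio of all genes was -0.53, and that of the 9 genes -0.37. With each gene's summed fragments taken as a share of all fragments of the age, a scale on which the median log2 ratio over all genes was 0.02, the ratios became 0.687 for *Apaf1*, 0.986 for *Bcl2l1* and 0.864 for *Casp9*, so none of the 3 was called lower. On the same scale *Bax* had a ratio of 1.09, against 0.772 by mean FPKM, and *Mcl1* 1.31, against 0.937. *Bcl2l11* reached 1.57 by share of fragments and 1.17 by mean FPKM, and *Bak1* 1.46 and 1.15. *Bcl2*, at 0.906 and 0.943, and *Bbc3*, at 0.983 and 0.673, were called on neither scale.

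*Apaf1* kept a lower level at P5 on both scales and after the shift of all genes was taken off, at a log2 ratio of -1.01. Its run means spanned 6.09 to 40.8 FPKM at P1 and 5.64 to 7.59 FPKM at P5 and so overlapped. The highest P1 cell supplied 19.6% of the P1 sum, and without the highest cell of each age the log2 ratio was -1.36. Among cells with 5000 to 7000 detected genes it was -0.27, and the call was lost. The mean of log2(FPKM + 0.1) turned it to 0.03. The share of cells with *Apaf1* was higher at P5, while the positive cells typically held less each. In positive cells the median was 53.7 FPKM at P1 and 18 FPKM at P5. The part of fragments from the genes with a matching stretch in the level of *Apaf1* was not tested.

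In positive cells the median FPKM of each of the 9 genes was lower at P5, as it was for 93.6% of all genes. By fragments in positive cells it was lower for 8 of the 9, beside 79.3%, and *Bak1* stood at 5 and 6. It was 219 FPKM at P1 and 122.9 FPKM at P5 for *Bax*, 63.8 and 38.8 FPKM for *Bcl2l1*, 32.97 and 22.6 FPKM for *Mcl1*, and 30.3 and 16.7 FPKM for *Casp9*. The scale that the authors' tool gave each library had a median of 1.01 at P1 and 1.32 at P5.

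**Figure D4:**
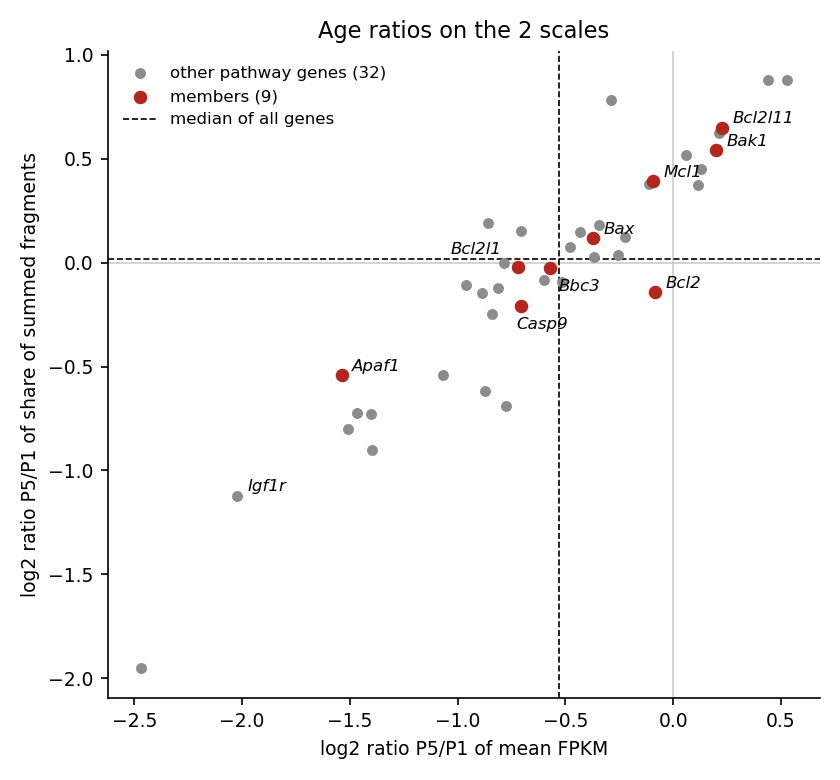
Log2 ratio of P5 over P1 by mean FPKM (horizontal) and by share of summed fragments (vertical) for the 9 members (red) and the 32 other listed pathway genes with enough positive cells (gray); dashed lines mark the median of all genes, -0.53 and 0.02. *Bax*, *Bbc3*, *Bcl2l1* and *Casp9* lie nearest the crossing of the dashed lines, *Apaf1* below and to the left, and *Bcl2l11* and *Bak1* above and to the right.

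The cells were next divided by detection of *Opn4* and of *Pou4f2*, a transcription factor found in many ipRGCs but lacking in most of those that project to the suprachiasmatic nucleus. *Opn4* without *Pou4f2* was found in 76 P1 and 65 P5 cells, both in 57 and 58, *Pou4f2* without *Opn4* in 27 and 45, and neither in 30 and 14. A missing transcript does not prove a cell to be without it. Within *Opn4*-positive cells, those without *Pou4f2* had fewer detected genes, with medians of 5004 against 5462 at P1 and 6261 against 6734 at P5. The question was whether the apoptosis genes differed between the 2 groups of *Opn4*-positive cells. In this genotype the *Pou4f2* locus also carries the toxin allele. A difference by *Pou4f2* therefore cannot be told apart from one by expression of the toxin, whose part was not tested.

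At P1 *Bax* was detected in 52 of 76 cells without *Pou4f2* (68.4%, 56.7 to 78.6%) and in 47 of 57 cells with it (82.5%, 70.1 to 91.3%), while the mean levels of 190 ± 279 and 194 ± 187.3 FPKM were nearly alike. *Mcl1* was lower without *Pou4f2* in both measures, with 31 of 76 against 31 of 57 cells (40.8% and 54.4%) and 16.3 ± 33.6 against 26.4 ± 48.2 FPKM. These were the 2 members called less often detected at P1, beside 18.2% of all genes, and 0 were called more often detected, beside 2.71%. Among P1 cells with 5000 to 7000 detected genes, 39 without and 35 with *Pou4f2*, the differences were -6.52 points for *Bax* and -0.44 points for *Mcl1*, and neither was called, beside 13.2% of all genes called less often detected there. The level of *Mcl1* was not called by share of fragments either, at a log2 ratio of -0.28. In the cells with 5000 to 7000 detected genes, 2 members were called more often detected without *Pou4f2*, beside 12.9% of all genes. By level over all cells of both groups, 2 were called lower, *Mcl1* and *Bak1*, beside 20.2% of all genes, and 2 higher, *Bcl2* and *Apaf1*, beside 22.8%. The call of *Bcl2*, a ratio of 5.28, rested on 8 cells without and 4 cells with *Pou4f2*, and 1 of those 4 cells supplied 80.96% of their sum. Without the highest cell of each group its log2 ratio moved from 2.40 to 4.33. The call of *Bak1* rested on 4 and 6 cells, and without the highest cells its log2 ratio moved from -1.06 to -3.51. *Apaf1* had 16.04 ± 47.5 FPKM in 17 positive cells of 76 and 10.2 ± 23.9 FPKM in 13 positive cells of 57, a ratio of 1.57. Without the highest cells its log2 ratio fell to 0.50, under the size of a call.

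At P5 *Bax* was detected in 59 of 65 cells without *Pou4f2* (90.8%, 81 to 96.5%) and 51 of 58 with it (87.9%, 76.7 to 95%), at mean levels of 124.3 ± 99.1 and 109.2 ± 78.6 FPKM. *Bcl2l1* levels were 26.9 ± 36.8 and 28.3 ± 30.6 FPKM and *Mcl1* levels 14.9 ± 22.8 and 14.2 ± 19.1 FPKM. No member was called in detection in either direction, beside 2.54% of all genes higher and 26.5% lower without *Pou4f2*. Among P5 cells with 5000 to 7000 detected genes, 33 in each group, 3 members were called more often detected without *Pou4f2*, beside 10% of all genes, and 1 less often, beside 16%, and *Bax* was higher by 15.2 points. In the same cells 5 members were called higher in level, beside 20.2% of all genes, and 0 lower, beside 21.5%. By level over all cells of both groups, 1 was called higher, beside 12% of all genes, and 1 lower, beside 24.5%. The first was *Apaf1*, at 7.23 ± 18.4 against 3.69 ± 11.3 FPKM, in 15 of 65 and 11 of 58 cells, and the second *Bak1*, at 0.352 ± 1.28 against 0.536 ± 1.74 FPKM, in 8 and 9 cells. The mean of *Apaf1* was thus higher without *Pou4f2* at both ages, and its shares of positive cells, 22.4% and 22.8% at P1 and 23.1% and 19% at P5, had wide and overlapping intervals.

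Cells with *Pou4f2* and no *Opn4* fragment had the highest shares of *Bax* and *Mcl1* at P5. *Bax* was found in 44 of 45 of them (97.8%, 88.2 to 99.9%) at 188.03 ± 140.5 FPKM, and *Mcl1* in 37 of 45 (82.2%, 67.9 to 92%) at 27.5 ± 33.7 FPKM. The *Mcl1* share lay above those of 56.9% (44 to 69.2%) and 65.5% (51.9 to 77.5%) in the *Opn4*-positive groups of that age, with overlap of the intervals. At P1 the 27 such cells held *Bax* at 184.03 ± 172.8 FPKM and *Mcl1* at 27.9 ± 34.8 FPKM, in 70.4% and 63% of cells. The 14 P5 cells with neither transcript had *Bcl2* in 0 cells and *Bcl2l11* in 0 cells, which at a limit of 3 counts allows a share of up to 21.4% and by the exact interval up to 23.2%.

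**Figure D5:**
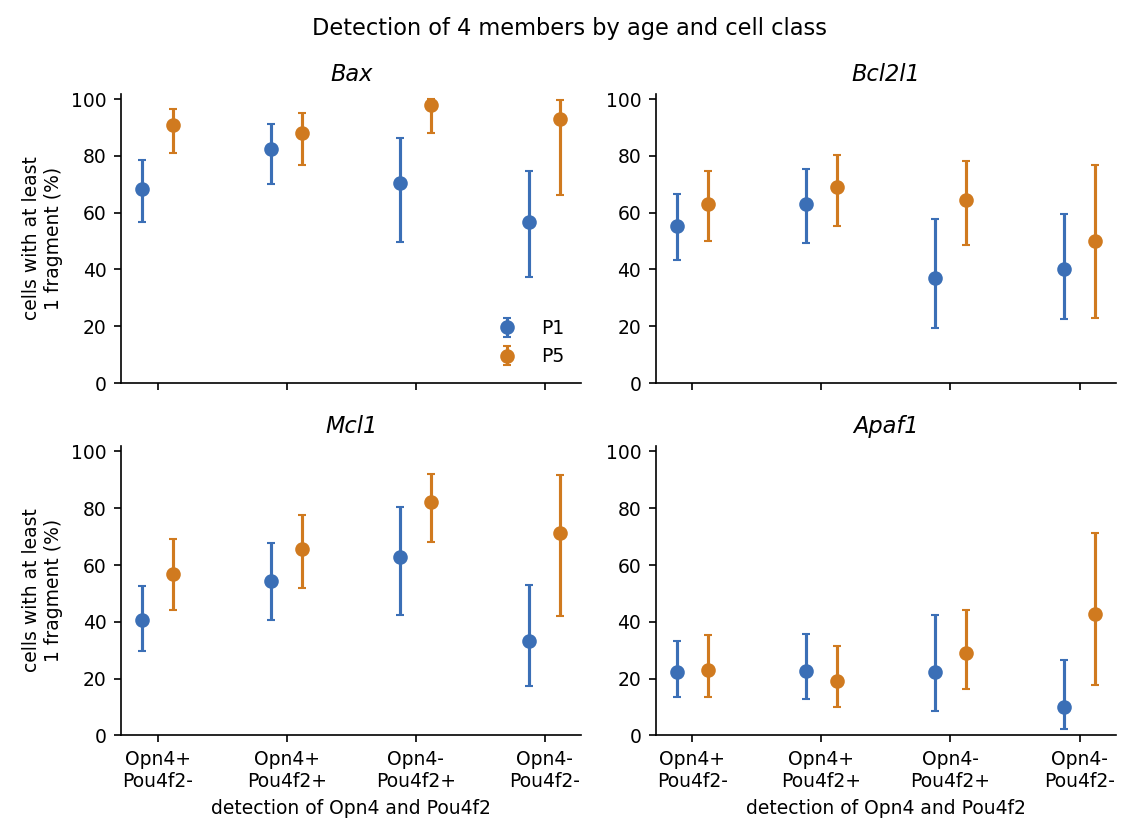
Share of cells with at least 1 fragment of *Bax*, *Bcl2l1*, *Mcl1* or *Apaf1* in 4 classes set by detection of *Opn4* and *Pou4f2*, at P1 (blue) and P5 (orange); bars are exact 95% binomial intervals and classes hold 14 to 76 cells. *Bax* is higher at P5 in every class, and the *Apaf1* intervals overlap throughout.

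The members were also read together in each cell. An effector and at least 1 anti-apoptotic transcript shared a cell in 58.4% of cases (51.1 to 65.5%) at P1 and 82.4% (76.1 to 87.7%) at P5. An effector without any of the 3 anti-apoptotic transcripts was found in 27 P1 cells (14.2%, 9.58 to 20%) and 18 P5 cells (9.89%, 5.97 to 15.2%), and the reverse in 35 P1 cells (18.4%) and 10 P5 cells (5.49%). *Bcl2l1* and *Mcl1* were found together in 51 P1 cells (26.8%) and 82 P5 cells (45.1%). All 4 roles were represented in 24 P1 cells (12.6%) and 42 P5 cells (23.1%). No cell held all 9 transcripts, and 11 P1 cells and 1 P5 cell held none. The number of detected genes also differed between the ages, and its part in these shares was not tested.

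Summed within a cell, effector FPKM exceeded anti-apoptotic FPKM in 62.1% of cells (54.8 to 69%) at P1 and 79.7% (73.1 to 85.3%) at P5. The effector sum had a median of 120 FPKM at P1 and 117.3 FPKM at P5, and the anti-apoptotic sum 39.4 and 39.2 FPKM. The mean effector sum was lower at P5, at 185.7 ± 228.7 FPKM at P1 and 143.7 ± 142.3 FPKM at P5. The mean anti-apoptotic sum was 70.8 ± 131.9 and 50.2 ± 48.4 FPKM. The part of detected genes in the rise of the share was not tested. Nearly all of the effector sum was *Bax*. These are ratios of transcripts per length and do not give a ratio of proteins.

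Levels of the 9 genes did not follow each other closely across cells. Over the 36 pairs and both ages, Pearson's r of log2(FPKM + 1) ran from -0.16 to 0.21, with a median of 0.01, and none exceeded 0.3 at both ages. The cells share library preparation and vary in detected genes, so these values are a description. The pair with the lowest r, *Bak1* and *Bcl2l11* at P5, shared 0 cells at either age, where the product of their shares gives 1.25 cells at P1 and 4.71 at P5. Among 9442 genes detected in at least 20% of cells, those whose levels were most like *Bax* were *Psmb5*, a proteasome subunit gene, *Sgta*, a co-chaperone gene, and *Timm23*, a mitochondrial import gene, with mean r of 0.33, 0.32 and 0.31 over the 2 ages. *Bax* itself had r of 0.38 at P1 and 0.35 at P5 with the number of detected genes. No gene reached a mean r of 0.3 with any of the other 8 members.

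The wider pathway was read from a list of 43 further genes, of which 32 were detected in at least 20 cells. By mean FPKM 0 of the 32 were called higher and 17 lower at P5, with a median log2 ratio of -0.65, and by detection 19 were called higher and 1 lower, with a median of 11.4 points. Over all genes 45.6% were lower in level and 44% more often detected. By share of fragments the same 32 genes gave 4 higher and 8 lower, with a median log2 ratio of 0.01, beside 12.7% higher and 11.7% lower over all genes. Among the other BCL-2 family and BH3-only genes, *Bad* was found in 46.3% and 60.4% of cells, *Bid* in 28.4% and 44% and *Bcl2l2* in 28.9% and 33.5%, and these were named after their values were seen, while *Bik*, *Bmf* and *Pmaip1* were each found in fewer than 20 cells and *Bcl2a1a*, *Bcl2a1b*, *Bcl2a1d* and *Bcl2l10* in 0. *Cycs*, which encodes cytochrome c, was found in 94.2% and 97.8% of cells.

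*Igf1r*, the receptor of insulin-like growth factor 1, was the only listed gene called the same way in level and detection between the ages. Its mean level fell from 21.7 to 5.33 FPKM and its share from 77.9% to 67.6%, and its run means of 11.9 to 39.1 FPKM at P1 and 3.48 to 6.69 FPKM at P5 did not overlap. In cells with Y-linked transcripts only, the means were 20.2 and 4.90 FPKM. Over all genes 45.6% were called lower in level at P5 and 0.351% less often detected, and the share called in both was not computed. A further 5 pathway genes were lower by 1.5-fold on mean FPKM, by share of fragments and after centering on all genes, and they are named here after their values were seen. They were *Hrk*, *Endog*, *Casp6*, *Mapk8* and the neurotrophin receptor gene *Ngfr*. The mean of *Ngfr* went from 4.42 to 0.799 FPKM, with run means of 3.65 to 6.70 at P1 and 0.452 to 1.13 FPKM at P5, and the run means of *Hrk* (4.32 to 11.4 and 1.97 to 2.73 FPKM) and *Mapk8* (17.6 to 50.2 and 10.5 to 12.5 FPKM) were apart as well. Those of *Endog* (6.91 to 26.6 and 5.49 to 11.98 FPKM) and *Casp6* (0.182 to 8.55 and 1.004 to 3.07 FPKM) overlapped. The share of all genes with run means of level apart, or lower on these scales together, was not computed. *Casp6* was found in only 8 P1 cells, of which 3 supplied 76.4% of the sum, and in Y-linked-only cells it was listed at 0 at P1 and at 1.75 FPKM at P5. In the other direction, *Bok* and *Xiap* were among the listed genes higher by 1.5-fold by share of fragments and after centering, but not by mean FPKM. *Xiap*, which encodes an inhibitor of caspases, was detected in 36.3% of P1 cells and 69.8% of P5 cells, with run shares of 31.3% to 46.8% and 60.4% to 79.5%. Each P5 run lay above each P1 run in detection for 19.2% of all genes.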

How the data were processed

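Single cells were sorted from P1 and P5 retinas and sequenced by Smart-seq2, which does not mark strand and adds no molecular identifiers. Per the labels and the submitters' processing notes, reads were aligned to GRCm38.p6 with HISAT2 2.1.0, handled with SAMtools 1.9 and quantified with Cufflinks 2.2.1 (Cuffnorm). The authors deposited a signal table of fragments per gene and cell after Cuffnorm's library scaling, a table of FPKM values made by the same tool, and the scale ratio of each library. No column of the authors' own comparisons was used.

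Multiplying the deposited signal by the library scale returned fragments, and 95.69% of the values of at least 0.5 lay within 0.01 of a whole number. A gene was detected from 0.99 fragments. A minimum of 1000 detected genes per cell took out 2 cells of P1 and 10 of P5. Doublets were not called, because cells were sorted singly, and no 2 cells held identical values. Groups and cell numbers came from the labels. The labels do not name animals, so an age was 1 sample, cells were not treated as replicates, and intervals cover counting error only. Ratios are of mean FPKM over all kept cells of a group. The comparisons were P5 over P1, and cells with *Opn4* and without *Pou4f2* over cells with both, at each age. Alternatives were other filters and detection limits, thinning to equal depth, shares of summed fragments, mean log values with pseudocounts of 1 and 0.1, and subsets of cells.

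The members, the pathway list and the markers were chosen with earlier results of these data known. Named genes were all 9 members, listed pathway genes past both size limits in the same direction, and the 3 genes most like a member at a mean r of at least 0.3. Other pathway genes given with values were chosen after those were seen. The scripts were tested on simulated data. Python 3.11.15, NumPy 2.4.6, SciPy 1.17.1, pandas 2.3.3, matplotlib 3.10.9 and BLAST 2.17.0 were used. Coding sequences and positions came from GENCODE M21.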

Additional observations from a re-analysis of the deposited data

How the results depend on the processing

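Of the counts of called members, the age comparison by level depended most on the scale. With 0 members higher and 3 lower at P5 by mean FPKM, there were 1 higher and 0 lower by share of fragments, 2 and 0 by the mean of log2(FPKM + 1), 3 and 0 by the mean of log2(FPKM + 0.1), 1 and 0 among cells with 5000 to 7000 detected genes, and 2 and 1 after centering on the median of all genes. Of all genes, 12.7% were higher and 11.7% lower by share of fragments, and 15.2% and 2.01% by the mean of log2(FPKM + 1). Among cells with 5000 to 7000 detected genes, 7.97% of all genes were higher and 30.1% lower. In the log means the directions of *Bcl2l1* (0.29 and 0.67) and *Casp9* (0.19 and 0.52) turned, and that of *Apaf1* (0.026) turned with the pseudocount of 0.1. Members higher numbered 2 in Y-linked-only cells, 2 in cells numbered over 96, 1 in cells with *Opn4* and without *Pou4f2*, and 1 with *Xist*-only P1 cells against all P5 cells, and members lower numbered 5 in cells numbered up to 96. Of all genes, 18.9% were higher in Y-linked-only cells and 5.83% with *Xist*-only P1 cells. The 4 members more often detected at P5 became 2 with no filter on cells, 0 among cells with 5000 to 7000 detected genes, 7 in Y-linked-only cells and 2 with *Xist*-only P1 cells. More often detected were 17% of all genes among cells with 5000 to 7000 detected genes, 61.9% in Y-linked-only cells and 36.5% with *Xist*-only P1 cells. For the classes at P1, the 2 members higher by level became 1 by share of fragments, 0 in both log means, 1 at 5000 to 7000 detected genes and 1 without the highest cell of each group, and the 2 lower became 4 with a limit of 5 fragments, 1 by share of fragments, 1 at 5000 to 7000 genes and 1 with both ages pooled. Of all genes at P1, 18% were higher and 20.3% lower by share of fragments, and 20.9% and 25.1% at 5000 to 7000 genes. By the mean of log2(FPKM + 1), 2.99% were higher. In detection at P1, 5000 to 7000 genes gave 2 higher and 0 lower, the limit of 5 fragments 0 lower and pooling 1 lower. Of all genes, 12.9% were higher and 13.2% lower in detection at P1 among cells with 5000 to 7000 detected genes. At P5, the 1 member higher by level became 2 in cells with at least 3000 detected genes, 0 in both log means, 5 at 5000 to 7000 genes, and 2 each after centering, without the highest cells and after pooling, and the 1 lower became 0 with at least 3000 genes, by log2(FPKM + 1), at 5000 to 7000 genes and after centering. Of all genes at P5, 20.2% were higher and 21.5% lower in level at 5000 to 7000 genes. By the mean of log2(FPKM + 1), 1.43% were higher and 20.8% lower. In detection at P5, 5000 to 7000 genes gave 3 higher and 1 lower, beside 10% and 16% of all genes, and pooling gave 1 lower. For the other alternatives the share over all genes was not computed. The cause was not tested. Centering, leaving out the highest cells and the *Xist*-only comparison were chosen after seeing the data. No paired analysis was possible because a cell number shared by P1 and P5 names different cells and no test was run. Genes with a median of 5 or 6 fragments in positive cells, such as *Bak1*, are limited by depth.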
